A study of Mus musculus with 8 samples.

Results

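Id2-GFP+ pre-CD8 cells were compared with Id2-GFP- CDP cells, the end and the start of a sorted path of dendritic cell progenitors from mouse bone marrow. The comparison took 4 of the 8 arrays of the study, 2 for each population, chosen by their sample titles, and 2 further arrays of Id2-GFP+ CDP were set beside them to show where that population lay. CDP stands for common dendritic cell progenitor in this field, while the labels use pre-CD8 without defining it. The submitters' stated purpose was to obtain signatures of these progenitors and their order in development. All cells came from the marrow of heterozygous reporter mice that carry a green fluorescent protein, sorted on a flow cytometer into fluorescent (GFP+) and non-fluorescent (GFP-) fractions. Titles name Id2-GFP, and sources and descriptions the Id2-IRES-GFP reporter, in which the protein is made from the Id2 locus, for every sample. The genotype field names a Zbtb46-GFP reporter for all Id2-GFP+ samples used here, and the Id2 reporter for those of Id2-GFP- CDP. A difference of reporter strain and a difference of cell population cannot be told apart in such a comparison. Nothing in the labels ties the replicates to different animals, so the p-values rest on array-to-array spread that may be technical in origin. Strain background, age, sex, sort gates and pooling of animals are not given in the sources used here. The cells were sorted from whole marrow, and a lower signal can come from fewer cells of a type or from less RNA per cell, which bulk arrays cannot tell apart.

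In the field's model, the CDP gives rise to conventional and plasmacytoid dendritic cells. The cDC1, also called the CD8-alpha or CD103 class, takes up dead cells and presents their antigens to CD8 T cells, and its development requires the transcription factors Irf8, Batf3, Nfil3 and Id2. Id2 is a helix-loop-helix protein without a DNA-binding domain that pairs with E proteins such as Tcf3 and Tcf4 and keeps them off DNA. MHC class II molecules, which present peptides to CD4 T cells, depend on the coactivator Ciita for their transcription.

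Promoters of 2 gene groups that the results turn on, MHC class II and secondary granule genes, are shown first, as the 250 bases before the gene's start, 5′ to 3′ on the gene's own strand, from RefSeq on GRCm38.p6. H2-Aa lies at chr17:34287824-34288073 on the minus strand and H2-Eb1 at chr17:34305617-34305866 on the plus strand, and capitals mark CCAAT on either strand. Ltf at chr9:111019042-111019291 and Ngp at chr9:110419558-110419807, both on the plus strand, carry in capitals TTGCNNAA on either strand.
H2-Aa: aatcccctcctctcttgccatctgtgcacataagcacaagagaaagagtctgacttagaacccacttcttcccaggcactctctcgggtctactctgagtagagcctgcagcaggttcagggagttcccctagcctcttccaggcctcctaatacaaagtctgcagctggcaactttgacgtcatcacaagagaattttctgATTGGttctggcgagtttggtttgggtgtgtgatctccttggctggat
H2-Eb1: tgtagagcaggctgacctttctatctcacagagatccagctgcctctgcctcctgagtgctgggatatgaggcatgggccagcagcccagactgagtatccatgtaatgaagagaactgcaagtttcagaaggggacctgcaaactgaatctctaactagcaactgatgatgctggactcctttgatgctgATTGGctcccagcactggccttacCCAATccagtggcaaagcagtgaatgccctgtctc
Ltf: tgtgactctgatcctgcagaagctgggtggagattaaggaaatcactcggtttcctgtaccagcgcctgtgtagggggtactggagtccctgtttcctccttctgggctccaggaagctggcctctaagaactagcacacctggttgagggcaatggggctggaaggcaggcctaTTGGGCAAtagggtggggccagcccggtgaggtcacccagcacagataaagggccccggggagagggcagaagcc
Ngp: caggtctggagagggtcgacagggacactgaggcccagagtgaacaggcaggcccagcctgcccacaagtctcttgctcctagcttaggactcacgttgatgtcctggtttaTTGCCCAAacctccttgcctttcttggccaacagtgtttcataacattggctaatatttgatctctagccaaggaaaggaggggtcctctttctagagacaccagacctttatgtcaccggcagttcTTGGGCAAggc
CCAAT, the core of the Y box of class II promoters, was found in this window of 7 of 7 MHC class II pathway genes with an entry. The share among all 27025 genes of the table was 37.5%, and 12 of 12 cholesterol synthesis genes and 23 of 29 G2 and M phase genes also held it. TTGCNNAA, part of the pattern bound by C/EBP factors, was found in 7 of 13 secondary granule and calprotectin genes, against 10.8% of all genes and 0 of 7 primary granule genes. The stricter pattern TTGCGCAA was found in 0 of these 13 genes and in 0.185% of all genes. In all 9 letter patterns were searched, and the patterns shown were picked after their counts were seen. A match is a description of letters and not a binding site.

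The 8 arrays had median log2 intensities of 6.12 to 6.27, and r between replicates of a group, taken across genes, was 0.984 to 0.989. Each group held 1 brighter array (mean intensity 461 to 478) and 1 dimmer array (402 to 414). The brighter arrays were replicate 2 of Id2-GFP+ pre-CD8, replicate 1 of Id2-GFP- CDP and replicate 2 of Id2-GFP+ CDP. These sets were made from the arrays' brightness and have no label, so the main test leaves them out. Counts with the brightness set as a block (called the block below) are given beside it for the gene lists. The sets come from the same intensities that are tested, and the pairing was chosen after seeing the data. P-values with the block may therefore be too small, and rising or falling with the block means only passing in that fit. In what follows, array values are log2 intensities in the order replicate 1, replicate 2, each difference is on the log2 scale and stands with its standard error from a limma fit to all 8 arrays, and adjusted p-values are limma's, over 19938 genes.

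Id2, the locus of the reporter that titles and sources name, had 10.69 and 11.00 in Id2-GFP+ pre-CD8, against 5.14 and 6.30 in Id2-GFP- CDP. Both pre-CD8 arrays lay above both CDP arrays, and the difference was 5.12 ± 0.48, or 34.8-fold, with an adjusted p of 0.00254 by limma. It was 5.85 between the brighter arrays and 4.39 between the dimmer ones. Id2-GFP+ CDP had 9.77 and 9.26, which is 74.1% of the way from the mean of Id2-GFP- CDP to that of Id2-GFP+ pre-CD8. The Id2 transcript thus followed the titles. The pre-CD8 label was set against the 21 cDC1 markers measured. The summed linear intensity of the markers was 23500 to 32000 in the pre-CD8 arrays, against 7900 to 8850 in those of Id2-GFP- CDP. In the Id2-GFP+ CDP arrays it was 15400 to 17300. Cd8a itself, the surface marker of the lymphoid organ cDC1, had 5.60 and 6.27 in Id2-GFP+ pre-CD8, against 6.12 and 5.74 in Id2-GFP- CDP, and the groups overlapped. Xcr1, the chemokine receptor of mature cDC1, had 4.84 and 5.66 in Id2-GFP+ pre-CD8, against 4.95 and 4.61 in Id2-GFP- CDP and an adjusted p of 0.76 by limma. Higher cDC1 marker levels thus came without a detectable difference in Cd8a.

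**Figure D1:**
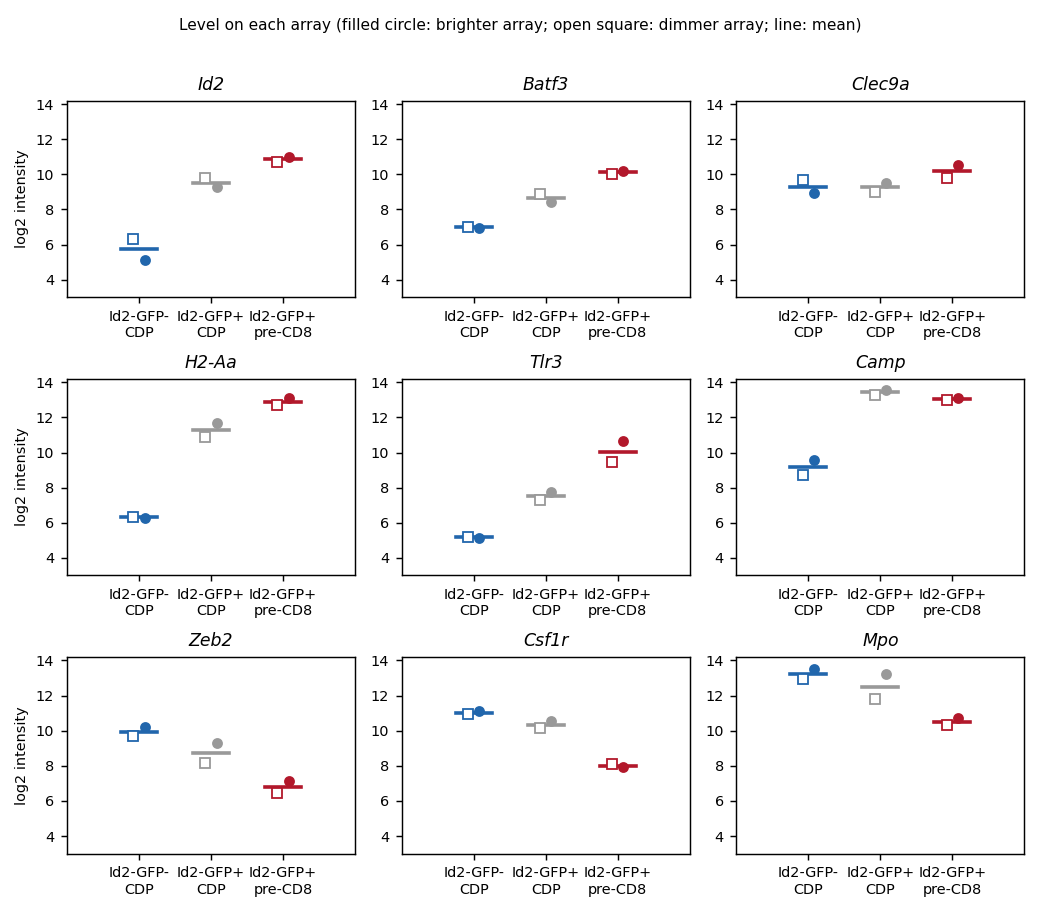
Log2 intensity (vertical axis) of 9 genes on each of the 2 arrays of Id2-GFP- CDP, Id2-GFP+ CDP and Id2-GFP+ pre-CD8 (horizontal axis), with filled circles for brighter arrays, open squares for dimmer arrays and lines for group means. Id2, Batf3, H2-Aa and Tlr3 stand highest in Id2-GFP+ pre-CD8, Camp stands highest in Id2-GFP+ CDP, Zeb2, Csf1r and Mpo stand lowest in Id2-GFP+ pre-CD8, and the Clec9a values lie close together.

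Across all genes, 277 were higher in Id2-GFP+ pre-CD8 (1.39% of 19938) and 80 were lower (0.401%) at an adjusted p under 0.05 by limma, and 1967 had an unadjusted p under 0.05. The median difference was 1.87 among genes called higher and -1.57 among genes called lower. 18 genes were higher by over 4 on the log2 scale, 121 by over 2, and 19 were lower by over 2. With the block 1390 genes were higher (6.97%) and 1764 lower (8.85%), including all 277 and all 80. These shares are the background for the list counts below, and a count near them does not set a list apart. The split between higher and lower moved with the scaling, at 563 higher and 354 lower after quantile normalization and 623 and 366 after scaling to the 75th percentile. Both pre-CD8 arrays lay above both Id2-GFP- CDP arrays for all 277 and below for all 80, while of all genes 15.6% and 17.9% had such separated arrays. All 357 had the same sign between the brighter arrays and between the dimmer arrays, which follows from that separation and is no further evidence. Those 2 differences share no array, and they correlated with r of 0.811 across 19938 genes, which are not independent replicates. Counts changed when single arrays were left out, which leaves 1 array in that group. Without Id2-GFP+ pre-CD8 replicate 2, 75 were higher and 8 lower, and without its replicate 1, 197 and 18. Without Id2-GFP- CDP replicate 1, 75 were higher and 2 lower, and without its replicate 2, 132 and 12. 60 of the higher and 2 of the lower genes were called without each of the 8 arrays in turn, and the 2 were Csf1r and Cd93.

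**Figure D2:**
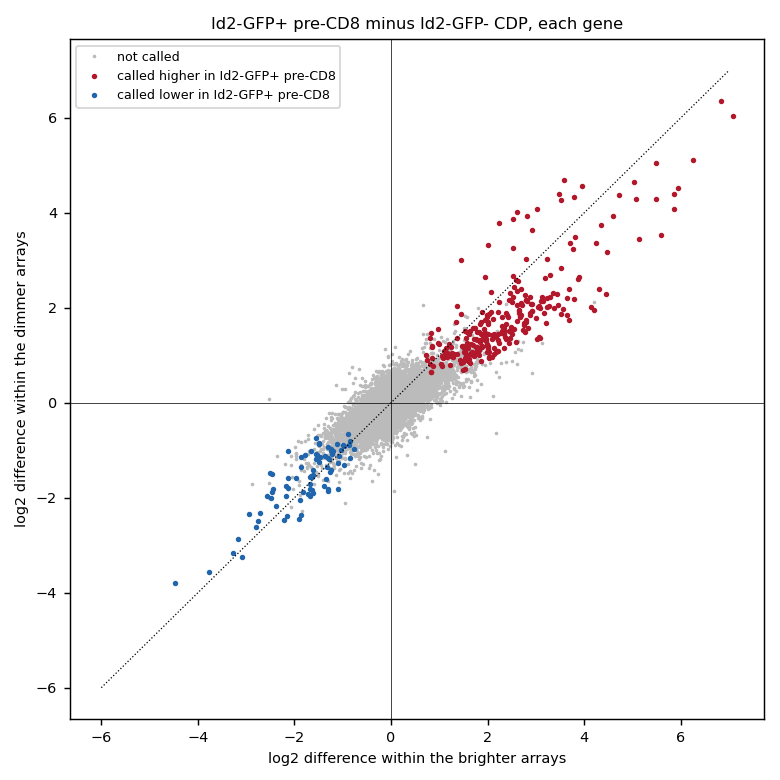
Log2 difference of Id2-GFP+ pre-CD8 minus Id2-GFP- CDP for each of 19938 genes, between the brighter arrays (horizontal axis) and between the dimmer arrays (vertical axis). Genes called higher (red, 277) and lower (blue, 80) lie in the upper right and lower left, and the dotted line marks equal differences.

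The 15 genes that were higher by the largest differences held 5 of the class II pathway, described below, and genes of several other kinds. Plbd1, a phospholipase B-like protein, had 12.34 and 12.83 in Id2-GFP+ pre-CD8, against 6.59 and 7.23 in Id2-GFP- CDP, a difference of 5.68 ± 0.31. Ifi205, of the interferon-inducible Ifi200 family, had 11.73 and 11.83 in Id2-GFP+ pre-CD8, against 5.89 and 7.22 in Id2-GFP- CDP (5.23 ± 0.38). Slamf7, a receptor of the SLAM family, had 9.82 and 10.49 in Id2-GFP+ pre-CD8, against 4.63 and 5.73 in Id2-GFP- CDP (4.97 ± 0.43). For all 3 genes the lower pre-CD8 array stood above the higher Id2-GFP- CDP array by over 4 on the log2 scale. Cd226, an adhesion receptor of lymphocytes and cDC1, had 9.29 and 9.74 in Id2-GFP+ pre-CD8, against 4.68 and 5.01 in Id2-GFP- CDP (4.67 ± 0.24). Samd9l had 11.08 and 11.32 in Id2-GFP+ pre-CD8, against 5.73 and 7.54 in Id2-GFP- CDP (4.56 ± 0.49), with a wide gap between its Id2-GFP- CDP arrays. Slc46a3, a lysosomal transporter, had 10.98 and 11.62 in Id2-GFP+ pre-CD8, against 6.90 and 6.61 in Id2-GFP- CDP (4.55 ± 0.27). Serpinb10, a serine protease inhibitor, had 9.37 and 9.66 in Id2-GFP+ pre-CD8, against 4.53 and 5.92 in Id2-GFP- CDP (4.29 ± 0.42). Adjusted p-values of these 7 genes by limma ran from 0.000175 to 0.00442, and none of the 15 genes lost its call without any 1 of the 8 arrays.

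The largest falls, named with the same genes left out, were smaller in size than the largest rises. Most of their calls were lost in at least 1 fit with an array left out. Leaving out an array of the groups compared leaves 1 array in that group, so a lost call does not mark that array as the source. F13a1, the A chain of coagulation factor XIII made by monocyte-lineage cells, had 7.16 and 7.16 in Id2-GFP+ pre-CD8, against 11.63 and 10.96 in Id2-GFP- CDP, 17.6-fold lower, at -4.14 ± 0.47 (adjusted p of 0.00568 by limma). Cd69, a membrane lectin of activated leukocytes, had 6.26 and 7.13 in Id2-GFP+ pre-CD8, against 10.40 and 9.42 in Id2-GFP- CDP (-3.22 ± 0.53). Chdh, choline dehydrogenase, had 7.02 and 7.23 in Id2-GFP+ pre-CD8, against 9.99 and 9.52 in Id2-GFP- CDP (-2.63 ± 0.34). All 3 were lower on both pre-CD8 arrays than on either Id2-GFP- CDP array. Adgrg7, an adhesion G protein-coupled receptor, fell by 2.52 ± 0.45, the transporter gene Abca9 by 2.28 ± 0.37, Drc7 by 2.27 ± 0.32, the protease gene Bace1 by 2.26 ± 0.37 and Gbp3, an interferon-inducible GTPase, by 2.25 ± 0.40. F13a1 was no longer called once replicate 1 of Id2-GFP- CDP was left out (adjusted p of 0.055 by limma). Cd69, Abca9, Bace1 and Gbp3 lost theirs without any 1 of the 4 arrays compared, and Chdh, Adgrg7 and Drc7 without 3 of the 4, with adjusted p-values up to 0.288. Chdh and Adgrg7 kept their calls without Id2-GFP- CDP replicate 2, and Drc7 kept its own without replicate 1 of Id2-GFP+ pre-CD8.

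**Figure D3:**
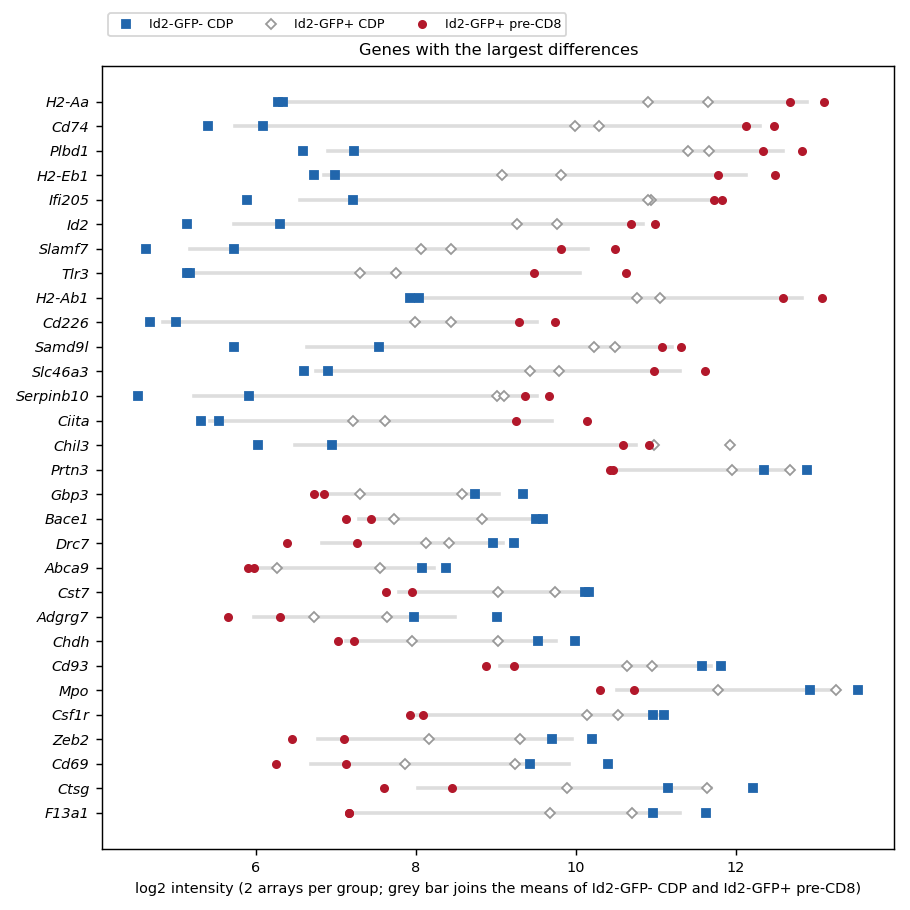
Log2 intensity (horizontal axis) of the 15 genes with the largest rise and the 15 with the largest fall in Id2-GFP+ pre-CD8 against Id2-GFP- CDP (rows), with 2 points per population and a grey bar joining the means of those 2 populations. Predicted genes, olfactory and vomeronasal receptors, small RNAs and antigen receptor segments are left out. Most Id2-GFP+ CDP points (open diamonds) lie between, and those of Chil3 lie at or above the Id2-GFP+ pre-CD8 points.

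MHC class II genes made the highest group. 7 of 8 measured members of the pathway rose, against 1.39% of all genes, and the median difference of the 8 was 4.56 (4.82 between the brighter and 4.30 between the dimmer arrays). H2-Aa, the alpha chain of I-A, had 12.68 and 13.11 in Id2-GFP+ pre-CD8, against 6.28 and 6.34 in Id2-GFP- CDP, a 95.9-fold difference of 6.58 ± 0.28 (adjusted p of 0.000118 by limma). Cd74, the invariant chain that guards the peptide groove, had 12.12 and 12.48 in Id2-GFP+ pre-CD8, against 5.40 and 6.09 in Id2-GFP- CDP (6.55 ± 0.32). H2-Eb1, the beta chain of I-E, had 11.78 and 12.48 in Id2-GFP+ pre-CD8, against 6.99 and 6.73 in Id2-GFP- CDP (5.27 ± 0.32). For each of these the groups were far apart on both arrays. H2-Ab1, the beta chain of I-A, had 12.59 and 13.07 in Id2-GFP+ pre-CD8, against 8.04 and 7.93 in Id2-GFP- CDP (4.85 ± 0.22). Ciita, the class II coactivator, had 9.25 and 10.14 in Id2-GFP+ pre-CD8, against 5.55 and 5.31 in Id2-GFP- CDP (4.27 ± 0.32). H2-Oa and H2-Ob, chains of the H2-O dimer that restrains peptide loading, rose by 1.90 ± 0.24 and 1.45 ± 0.20. H2-DMa, a chain of the loading catalyst H2-M, was high on every array, with 12.26 and 12.66 in Id2-GFP+ pre-CD8, against 11.86 and 11.85 in Id2-GFP- CDP, and did not pass at 0.60 ± 0.16 (adjusted p of 0.169 by limma). With the block all 8 rose. H2-Oa was no longer called without replicate 1 of Id2-GFP- CDP or replicate 2 of Id2-GFP+ pre-CD8, and H2-Ob without either of these or Id2-GFP- CDP replicate 2 (adjusted p up to 0.121 by limma).

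Id2-GFP+ CDP lay between the 2 populations for the class II genes. H2-Aa stood there at 10.90 and 11.66, 75.4% of the way, Cd74 at 9.99 and 10.29 (67.1%) and H2-Ab1 at 10.77 and 11.06 (60.4%). H2-Eb1 stood at 9.07 and 9.82 (49.0%) and Ciita at 7.22 and 7.61 (46.5%). 5 of the 8 were also called higher in Id2-GFP+ CDP than in Id2-GFP- CDP, against 0.597% of all genes. That comparison shares the Id2-GFP- CDP arrays. Of the MHC class I genes, by limma 0 of 12 measured members passed, 1 had an unadjusted p under 0.05, the block gave 3 rising, and the list median was 0.14. Over all genes 1967 of 19938 had an unadjusted p under 0.05 by limma, and the block gave 6.97% rising. B2m, the class I light chain, had 12.53 and 12.43 in Id2-GFP+ pre-CD8, against 12.35 and 12.26 in Id2-GFP- CDP. The peptide-loading gene Tapbp had 10.67 and 10.87 in Id2-GFP+ pre-CD8, against 10.09 and 9.88 in Id2-GFP- CDP and an adjusted p of 0.0926 by limma. Of 17 cathepsins and lysosomal enzymes 6 rose and 3 fell with the block and 1 passed without it, the protease inhibitor Cst3, at 0.74 ± 0.11, a call lost without any 1 of the 4 arrays compared (adjusted p up to 0.164).

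Of the 21 cDC1 markers measured 13 rose, against 1.39% of all genes, and all 21 differences were above 0, with a median of 1.66. Tlr3, an endosomal sensor of double-stranded RNA, had 9.48 and 10.63 in Id2-GFP+ pre-CD8, against 5.15 and 5.18 in Id2-GFP- CDP (4.89 ± 0.35). Naaa, a lysosomal lipid amidase, had 11.01 and 11.87 in Id2-GFP+ pre-CD8, against 7.62 and 7.64 in Id2-GFP- CDP (3.81 ± 0.30). Gcsam, a signalling adaptor first described in germinal centre B cells, had 8.63 and 9.23 in Id2-GFP+ pre-CD8, against 5.46 and 5.39 in Id2-GFP- CDP (3.51 ± 0.28). In all 3 the groups were separate on both arrays. Rab7b, an endosomal GTPase, rose by 2.64 ± 0.34, Snx22, a sorting nexin, by 2.04 ± 0.29, the lipid phosphatase gene Plpp1 by 1.75 ± 0.18, and Wdfy4, which cross-presentation requires, by 1.66 ± 0.23. Clnk, an adaptor of immune receptors, Ly75, the endocytic receptor DEC-205, and Cd24a rose by 1.46 ± 0.20, 1.13 ± 0.22 and 0.83 ± 0.14. Clec9a, the cDC1 receptor for dead cells, had 9.78 and 10.55 in Id2-GFP+ pre-CD8, against 8.92 and 9.65 in Id2-GFP- CDP. It did not pass at 0.88 ± 0.40 (adjusted p of 0.545 by limma, and 0.108 with the block). Cadm1, Ppt1, Cd36 and Btla differed by 0.57, 0.64, 0.56 and 1.90 without passing, and all 4 passed with the block, which gave 17 in all. The integrin gene Itgae differed by 0.17. The count was 7 without either Id2-GFP- CDP array and 8 without Id2-GFP+ pre-CD8 replicate 2. Tlr3, Naaa, Gcsam, Plpp1, Cd226, Ifi205 and Batf3 were called without each of the 8 arrays. Snx22 lost its call without either Id2-GFP- CDP array, Wdfy4 and Rab7b without these or Id2-GFP+ pre-CD8 replicate 2, Clnk without any 1 of the 4 arrays compared, and Ly75 and Cd24a without 6 of the 8 (adjusted p up to 0.362 by limma).

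Marker genes of other dendritic cell classes gave lower counts. Of 12 cDC2 markers 1 rose and 2 fell, against 1.39% and 0.401% of all genes, and with the block 5 rose and 3 fell, against 6.97% and 8.85%. Sirpa, an inhibitory receptor used to sort cDC2, had 9.08 and 8.88 in Id2-GFP+ pre-CD8, against 10.50 and 10.59 in Id2-GFP- CDP (-1.57 ± 0.23), and Clec10a, a galactose-type lectin, had 6.38 and 6.18 in Id2-GFP+ pre-CD8, against 7.45 and 7.83 in Id2-GFP- CDP (-1.36 ± 0.22). Both falls lost their calls without any 1 of the 4 arrays compared (adjusted p up to 0.227 by limma). In Id2-GFP+ CDP Sirpa stood at 10.34 and 10.57, 6.2% of the way, and Clec10a at 7.25 and 7.68 (12.7%), both close to the level of Id2-GFP- CDP. Clec4a2, an inhibitory lectin also known as DCIR, rose by 2.99 ± 0.28. Itgam, Cd209a, Clec4a1 and Irf4 differed by 1.29, 2.19, 1.04 and 0.90 and rose with the block only. Clec12a, at -0.88, fell with the block only. Of the 12 cDC2 differences 7 were above 0 and 5 below, with a median of 0.18. Of 13 shared conventional dendritic cell markers 4 rose (5 rose and 1 fell with the block): the costimulatory ligand Cd86 by 2.50 ± 0.28, Bcl6 by 2.33 ± 0.21, Zbtb46 by 2.05 ± 0.29 and Kmo, an enzyme of tryptophan breakdown, by 1.74 ± 0.32. Bcl6 kept its call without each array, Cd86 lost it without Id2-GFP- CDP replicate 1, Zbtb46 without that array or Id2-GFP+ pre-CD8 replicate 2, and Kmo without 6 of the 8 (adjusted p up to 0.299). Of 15 pDC markers 2 rose, Irf7 by 2.13 ± 0.37 and the gut-homing receptor gene Ccr9 by 1.57 ± 0.31, and 1 fell, the sodium pump subunit gene Atp1b1, at -1.45 ± 0.25. The block gave 6 pDC markers rising and 4 falling. Atp1b1 and Ccr9 lost their calls without any 1 of the 4 arrays and Irf7 without 3 of them (adjusted p up to 0.33).

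The list of dendritic cell transcription factors held 31 measured genes, of which 5 rose and 1 fell, against 1.39% and 0.401% of all genes. The block gave 13 and 5, against 6.97% and 8.85% of all genes. Batf3, which cDC1 require, had 10.04 and 10.18 in Id2-GFP+ pre-CD8, against 6.94 and 7.02 in Id2-GFP- CDP, a difference of 3.13 ± 0.23 (adjusted p of 0.000887 by limma). Id2-GFP+ CDP had 8.85 and 8.41, 52.7% of the way. Bcl6, a zinc-finger repressor, had 8.99 and 9.34 in Id2-GFP+ pre-CD8, against 6.73 and 6.94 in Id2-GFP- CDP (2.33 ± 0.21). Zbtb46, a repressor that marks conventional dendritic cells, had 7.68 and 8.04 in Id2-GFP+ pre-CD8, against 5.48 and 6.13 in Id2-GFP- CDP (2.05 ± 0.29). Zbtb46 is also the locus of the reporter that the genotype field names for the pre-CD8 samples. Mycl, a Myc family member that cDC1 use in place of Myc, had 9.57 and 9.93 in Id2-GFP+ pre-CD8, against 7.96 and 8.24 in Id2-GFP- CDP (1.65 ± 0.23), and Irf5 rose by 1.62 ± 0.23. Zeb2, a repressor that favours pDC and cDC2 over cDC1, had 6.45 and 7.11 in Id2-GFP+ pre-CD8, against 10.20 and 9.70 in Id2-GFP- CDP (-3.17 ± 0.40, adjusted p of 0.00886 by limma). Its 4 array values were separate, with Id2-GFP+ CDP at 8.16 and 9.30. Mycl and Irf5 lost their calls without either array of Id2-GFP- CDP or replicate 2 of Id2-GFP+ pre-CD8, and Zeb2 without Id2-GFP- CDP replicate 1 (adjusted p of 0.0889).

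Several regulators of dendritic cell fate did not pass. Irf8 was high on every array, with 12.83 and 13.01 in Id2-GFP+ pre-CD8, against 12.39 and 12.77 in Id2-GFP- CDP (0.34 ± 0.22). Nfil3 had 10.84 and 9.76 in Id2-GFP+ pre-CD8, against 9.04 and 9.86 in Id2-GFP- CDP (0.85 ± 0.49), and its groups overlapped. The E protein genes Tcf3 and Tcf4, whose products Id2 binds, differed by -0.37 ± 0.23 and -0.56 ± 0.20, and Tcf4 fell under the block at an adjusted p of 0.0113 by limma. By limma 0 of 16 helix-loop-helix genes passed, these 2 included, 5 had an unadjusted p under 0.05, and with the block 2 rose and 4 fell. Over all genes 1967 of 19938 had an unadjusted p under 0.05 by limma, and with the block 6.97% rose and 8.85% fell. Spi1 differed by 0.54, Irf4 by 0.90, Klf4 by 1.71, Cebpa by -0.21 and Cebpb by -0.54. Myc had 10.12 and 10.84 in Id2-GFP+ pre-CD8, against 11.95 and 10.75 in Id2-GFP- CDP, with overlapping groups, and Mycn had 6.27 and 6.44 in Id2-GFP+ pre-CD8, against 5.31 and 5.00 in Id2-GFP- CDP (1.20 ± 0.27, adjusted p of 0.0851). Adjusted p-values of the genes named in this paragraph lay between 0.0851 and 1 in limma's fit without the block, which does not show that they were equal. P-values with the block may be too small, and Nfil3 and Myc passed it with overlapping groups. With the block Nfil3 (0.00565), Spi1 (0.00655), Irf4 (0.00151), Klf4 (0.0045) and Mycn (0.00196) passed as higher, and Cebpb (0.0177) and Myc (0.00157) as lower, with limma's adjusted p in brackets. Irf8, Tcf3 and Cebpa did not pass with it either (0.168, 0.0725 and 0.378).

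Growth factor receptors did not move together. Csf1r, the receptor for the monocyte growth factor M-CSF and part of the usual CDP gate, had 8.09 and 7.93 in Id2-GFP+ pre-CD8, against 11.10 and 10.97 in Id2-GFP- CDP, 8.14-fold lower at -3.03 ± 0.23 (adjusted p of 0.000887 by limma), with Id2-GFP+ CDP at 10.14 and 10.53, 23.2% of the way. Flt3, the receptor of the main dendritic cell growth factor, had 11.05 and 11.53 in Id2-GFP+ pre-CD8, against 11.71 and 11.44 in Id2-GFP- CDP and did not pass at -0.29 ± 0.26, but fell with the block (adjusted p of 0.0452 by limma). Kit, the stem cell factor receptor, had 10.78 and 11.68 in Id2-GFP+ pre-CD8, against 10.82 and 9.73 in Id2-GFP- CDP (0.95 ± 0.52) and passed under the block at an adjusted p of 4.67e-05. A change was thus called for Csf1r but not for Flt3 or Kit in the fit without the block, and the differences between the genes were not tested. Of 21 cytokine and growth factor receptors 3 rose beside the fall of Csf1r, and with the block 7 rose and 4 fell. The shares of all genes were 1.39% rising and 0.401% falling, and 6.97% and 8.85% with the block. Il18r1, an interleukin 18 receptor chain, had 8.85 and 7.48 in Id2-GFP+ pre-CD8, against 5.24 and 5.07 in Id2-GFP- CDP (3.01 ± 0.43). Il1r2, a decoy receptor for interleukin 1, had 8.15 and 7.89 in Id2-GFP+ pre-CD8, against 5.37 and 4.88 in Id2-GFP- CDP (2.89 ± 0.33), and Il12rb2, an interleukin 12 receptor chain, had 8.99 and 9.35 in Id2-GFP+ pre-CD8, against 6.85 and 6.88 in Id2-GFP- CDP (2.31 ± 0.22). All 3 were separate from Id2-GFP- CDP on both arrays, and Il18r1 lost its call without either Id2-GFP- CDP array (adjusted p up to 0.0988).

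Pattern recognition receptors moved in both directions. The shares of all genes were 1.39% rising and 0.401% falling, and 6.97% and 8.85% with the block. In the list of toll-like receptors and their adaptors 9 of 17 rose and 2 fell with the block, and 4 rose without it: Tlr3, Tlr12, a receptor for parasite profilin, by 2.21 ± 0.35, Cd180, a relative of the toll-like receptors, by 1.76 ± 0.34, and Tlr4, the lipopolysaccharide receptor, by 1.65 ± 0.29. The pDC receptors for single-stranded RNA and CpG DNA, Tlr7 and Tlr9, differed by -0.77 and 1.02 without passing. Among 19 C-type lectin receptors 3 rose and 2 fell, and the block gave 6 and 5. Clec4b1 had 7.07 and 7.60 in Id2-GFP+ pre-CD8, against 3.91 and 3.72 in Id2-GFP- CDP (3.53 ± 0.21), and Clec7a, the beta-glucan receptor dectin-1, had 6.47 and 6.76 in Id2-GFP+ pre-CD8, against 8.58 and 8.36 in Id2-GFP- CDP (-1.85 ± 0.27). Clec4a2 and Ly75 also rose and Clec10a also fell, with the values given above. Tlr4 and Clec7a lost their calls without any 1 of the 4 arrays compared, Tlr12 without 3 of them and Cd180 without 6 of the 8 (adjusted p up to 0.346 by limma), while Clec4b1 kept its call.

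Chemokine receptors and integrins were mostly higher. Of 21 such genes 6 rose and 1 fell, with a median of 0.65, and with the block 11 rose and 1 fell. The shares of all genes were 1.39% rising and 0.401% falling, and 6.97% and 8.85% with the block. Itgb2, the common beta-2 chain of leukocyte integrins, had 10.31 and 10.79 in Id2-GFP+ pre-CD8, against 7.50 and 8.09 in Id2-GFP- CDP (2.75 ± 0.28). Cxcr3, the receptor for interferon-induced chemokines, had 8.58 and 9.47 in Id2-GFP+ pre-CD8, against 6.38 and 6.59 in Id2-GFP- CDP (2.54 ± 0.33). Itgb7 and Itga4, the chains of the gut-homing integrin, rose by 1.93 ± 0.32 and 1.08 ± 0.18. Ccr2, the receptor that draws monocytes from marrow, had 11.06 and 11.10 in Id2-GFP+ pre-CD8, against 9.49 and 9.61 in Id2-GFP- CDP (1.53 ± 0.20), and Ccr9 was given above. The fractalkine receptor gene Cx3cr1 fell by 0.88 ± 0.17, a call lost without any 1 of the 8 arrays (adjusted p up to 0.34 by limma). The count of genes that rose was 3 and 1 without Id2-GFP+ pre-CD8 replicate 1 and 2, and 2 and 1 without Id2-GFP- CDP replicate 1 and 2. Of the 6, Itgb2 was called without each of the 8 arrays.

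Early progenitor genes were lower in part. Of 26 measured 2 fell, against 0.401% of all genes, and the median was -0.48. Cd93, a lectin-like receptor of early progenitors, had 9.22 and 8.88 in Id2-GFP+ pre-CD8, against 11.81 and 11.58 in Id2-GFP- CDP (-2.64 ± 0.20, adjusted p of 0.000887 by limma). Erg, an ETS factor of stem cells, had 6.88 and 7.24 in Id2-GFP+ pre-CD8, against 9.42 and 8.84 in Id2-GFP- CDP (-2.07 ± 0.38), a call lost without any 1 of the 4 arrays compared (adjusted p up to 0.315). Cd34 and Egfl7 differed by -1.42 ± 0.31 and -1.66 ± 0.35 without passing. With the block 13 fell, Cd34 and Egfl7 included, and 3 rose, among them Kit.

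Granule genes of neutrophils and their precursors split by granule type. Primary (azurophil) granules form in early granulocyte precursors and secondary granules in later ones. Of 8 primary granule genes 4 fell, against 0.401% of all genes, with a list median of -1.56, and 5 fell with the block. Ctsg, cathepsin G, had 7.60 and 8.45 in Id2-GFP+ pre-CD8, against 12.21 and 11.16 in Id2-GFP- CDP (-3.66 ± 0.66). Mpo, myeloperoxidase, had 10.31 and 10.73 in Id2-GFP+ pre-CD8, against 13.53 and 12.92 in Id2-GFP- CDP (-2.71 ± 0.46). Prtn3, proteinase 3, had 10.47 and 10.43 in Id2-GFP+ pre-CD8, against 12.89 and 12.35 in Id2-GFP- CDP (-2.17 ± 0.38), and Cst7, a cystatin, had 7.63 and 7.96 in Id2-GFP+ pre-CD8, against 10.17 and 10.11 in Id2-GFP- CDP (-2.34 ± 0.26). All 4 were lower on both pre-CD8 arrays. Elane, neutrophil elastase, had 9.56 and 9.88 in Id2-GFP+ pre-CD8, against 10.75 and 8.92 in Id2-GFP- CDP and overlapped. Ctsg, Mpo and Prtn3 lost their calls without any 1 of the 4 arrays compared (adjusted p up to 0.283 by limma), and Cst7 without Id2-GFP- CDP replicate 1 (0.0546).

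Secondary granule and calprotectin genes went the other way, 10 of 15 rising, against 1.39% of all genes, with a list median of 3.28 (14 rising and 1 falling with the block, and medians of 2.81 between the brighter and 3.64 between the dimmer arrays). Chil3, a chitinase-like lectin, had 10.59 and 10.91 in Id2-GFP+ pre-CD8, against 6.95 and 6.03 in Id2-GFP- CDP (4.26 ± 0.38). Ltf, lactoferrin, had 11.66 and 12.26 in Id2-GFP+ pre-CD8, against 8.47 and 7.32 in Id2-GFP- CDP (4.07 ± 0.40), and Lcn2, an iron-siderophore binder, had 12.18 and 12.38 in Id2-GFP+ pre-CD8, against 8.81 and 7.49 in Id2-GFP- CDP (4.13 ± 0.39). S100a8, a subunit of calprotectin, had 12.56 and 12.65 in Id2-GFP+ pre-CD8, against 9.17 and 8.17 in Id2-GFP- CDP (3.94 ± 0.30). Camp, the cathelicidin precursor, had 12.98 and 13.10 in Id2-GFP+ pre-CD8, against 9.59 and 8.72 in Id2-GFP- CDP (3.89 ± 0.28). In each of these both pre-CD8 arrays stood well above both Id2-GFP- CDP arrays. S100a9, the other calprotectin subunit, Ngp, a cystatin-like granule protein, and Fcnb, a ficolin, rose by 3.28 ± 0.26, 3.37 ± 0.38 and 3.55 ± 0.54. Csf3r, the G-CSF receptor, did not rise, with 8.42 and 8.93 in Id2-GFP+ pre-CD8, against 10.04 and 8.84 in Id2-GFP- CDP, and fell under it at an adjusted p of 0.01. Cebpe, the factor that secondary granule genes require, differed by 1.89 ± 0.42 and passed with the block only (0.000601). Fcnb, Mmp9 and Cd177 lost their calls without 2 to 5 of the 8 arrays (adjusted p up to 0.266), Id2-GFP- CDP replicate 2 and Id2-GFP+ pre-CD8 replicate 2 in each case.

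The summed level of the secondary granule genes was highest in Id2-GFP+ CDP. Their summed linear intensity was 3110 to 6280 in Id2-GFP- CDP, 55000 to 75300 in Id2-GFP+ CDP and 40600 to 47400 in Id2-GFP+ pre-CD8. The summed level of the primary granule genes was 17800 to 28400, 11200 to 28800 and 4810 to 5610 in the same order. Ly6g, a surface marker of neutrophils, had 7.66 and 8.05 in Id2-GFP+ pre-CD8, against 5.36 and 5.26 in Id2-GFP- CDP (2.54 ± 0.29), with Id2-GFP+ CDP at 8.65 and 9.54. The values carry no detection calls. Whether cells of the granulocyte lineage, or free RNA from them, took part in these differences was not tested.

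Markers of other lineages were counted in the same way. The shares of all genes were 1.39% rising and 0.401% falling, and 6.97% and 8.85% with the block. At an unadjusted p under 0.05 by limma there were 1967 of 19938 genes. In the monocyte and macrophage list 3 of 17 markers rose and 3 fell: F13a1, Csf1r and Cx3cr1 fell, and Lyz2 (lysozyme) by 1.99 ± 0.24, Ccr2 and Ms4a4c by 1.34 ± 0.26 rose. Of 15 B lineage markers 2 rose, with Fcrla, an Fc receptor-like protein, at 8.40 and 8.33 in Id2-GFP+ pre-CD8, against 5.81 and 5.72 in Id2-GFP- CDP (2.60 ± 0.19) and the inhibitory receptor gene Cd22 at 10.67 and 10.80 in Id2-GFP+ pre-CD8, against 6.49 and 8.28 in Id2-GFP- CDP (3.35 ± 0.57). Cd79a, a chain of the B cell receptor, had 4.85 and 5.07 in Id2-GFP+ pre-CD8, against 4.84 and 4.33 in Id2-GFP- CDP and did not pass. Of 16 T, NK and ILC markers 2 rose, Il2rb, the beta chain of the interleukin 2 receptor, by 3.20 ± 0.58 and Ncr1, the NK receptor NKp46, by 1.15 ± 0.18, and Cd3e differed by 0.22. With the block 8 of the 16 rose, and 15 differences were above 0. Cd7, a surface protein of T and NK cells, had 11.55 and 11.30 in Id2-GFP+ pre-CD8, against 7.09 and 9.42 in Id2-GFP- CDP and passed with the block (adjusted p of 0.000305 by limma) but not without it (0.0674). Of 11 basophil, mast cell and eosinophil markers 1 rose, the mast cell carboxypeptidase gene Cpa3, by 2.67 ± 0.52. Summed levels of the T, NK and ILC markers were 4000 to 4990 in the pre-CD8 arrays, against 1060 to 1630 in those of Id2-GFP- CDP. Those of the B lineage markers were 2920 to 3070 in the pre-CD8 arrays, against 1260 to 1510 in those of Id2-GFP- CDP. Those of the monocyte and macrophage markers were 14500 to 16100 in the pre-CD8 arrays, against 15900 to 18600 in those of Id2-GFP- CDP. Such sums are weighted toward the brightest members, in the pre-CD8 arrays Cd7 for the T, NK and ILC list and Cd22 for the B lineage list. The median differences of these lists were 0.50 and 0.18. Of the 15 B lineage differences 5 were below 0, with Blnk (-1.14) and Vpreb1 (-0.70) falling with the block. By limma 0 of 9 erythroid and megakaryocyte markers and 0 of 12 lymphoid programme genes passed, with 1 and 4 at an unadjusted p under 0.05 and 1 and 3 passing with the block. Fcrla kept its call without each array. Of the others Ncr1, Il2rb and Ccr2 lost theirs without any 1 of the 4 arrays compared, Cd22 and Lyz2 without 3 of them and Cpa3 and Ms4a4c without 6 of the 8, with adjusted p-values up to 0.39. With the block 4 monocyte and macrophage markers rose and 6 fell, 3 B lineage markers rose and 2 fell, and 3 basophil, mast cell and eosinophil markers rose. The part of such cells in the results was not tested.

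Cell cycle and ribosome biogenesis genes differed by small amounts, called with the block but not without it. Of all 19938 genes 1967 had an unadjusted p under 0.05 by limma without the block. With the block 6.97% of all genes rose and 8.85% fell. Of 33 G2 and M phase genes 0 passed by limma without the block and 4 had an unadjusted p under 0.05. In this list 32 differences were above 0 and the median was 0.33, while 15 genes rose with the block. Of 29 S phase genes 0 passed, 7 had an unadjusted p under 0.05, 26 differences were below 0 with a median of -0.42, and 15 fell with the block. Cdt1, a replication licensing factor, had 8.55 and 8.44 in Id2-GFP+ pre-CD8, against 9.39 and 9.44 in Id2-GFP- CDP (-0.92 ± 0.20), and the helicase subunit gene Mcm2 had 10.76 and 10.87 in Id2-GFP+ pre-CD8, against 11.53 and 11.33 in Id2-GFP- CDP (-0.62 ± 0.21). All 25 ribosome biogenesis genes measured lay below 0, with a median of -0.50. Of these 0 passed by limma without the block, 5 had an unadjusted p under 0.05, and 21 fell with it. Rrp12, which exports ribosomal subunits, had 6.88 and 7.07 in Id2-GFP+ pre-CD8, against 8.24 and 7.79 in Id2-GFP- CDP (-1.04 ± 0.30). The median difference of all 19938 genes was -0.01. In the D cyclin list 0 of 14 passed, with 4 at an unadjusted p under 0.05, and the block gave 5 rising and 3 falling, with Cdk6 at -1.64 ± 0.46 (adjusted p of 2.85e-05 with the block).

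The remaining lists had few calls. The shares of all genes were 1.39% rising and 0.401% falling, and 6.97% and 8.85% with the block. At an unadjusted p under 0.05 by limma there were 1967 of 19938 genes. Of 15 cholesterol synthesis genes 1 rose, the regulator Srebf2, by 1.05 ± 0.19, a call lost without any 1 of the 8 arrays, with 14 of 15 differences above 0, a median of 0.50 and 7 rising with the block. Of 21 interferon response genes Irf7 rose, and with the block 9 rose and 4 fell. Among 14 Gbp and Gimap GTPases Gbp9 rose by 1.69 ± 0.30 and Gbp3 fell, and the block gave 5 rising and 3 falling. Of 19 immediate early and stress genes Ier5 rose by 1.62 ± 0.25, and the block gave 4 rising and 1 falling. Gbp9 and Ier5 lost their calls without 4 and 3 of the arrays compared (adjusted p up to 0.284 by limma), and Irf7 without 3. Of 11 Myc network genes Mycl rose, and the block gave 4 rising and 2 falling. In 12 STAT and SOCS genes and 15 genes of the Bcl2 family and death receptors 0 passed by limma, 4 and 3 had an unadjusted p under 0.05, and 4 and 3 passed with the block. Bcl2 itself had 10.80 and 10.43 in Id2-GFP+ pre-CD8, against 11.84 and 11.43 in Id2-GFP- CDP (-1.02 ± 0.24).

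**Figure D4:**
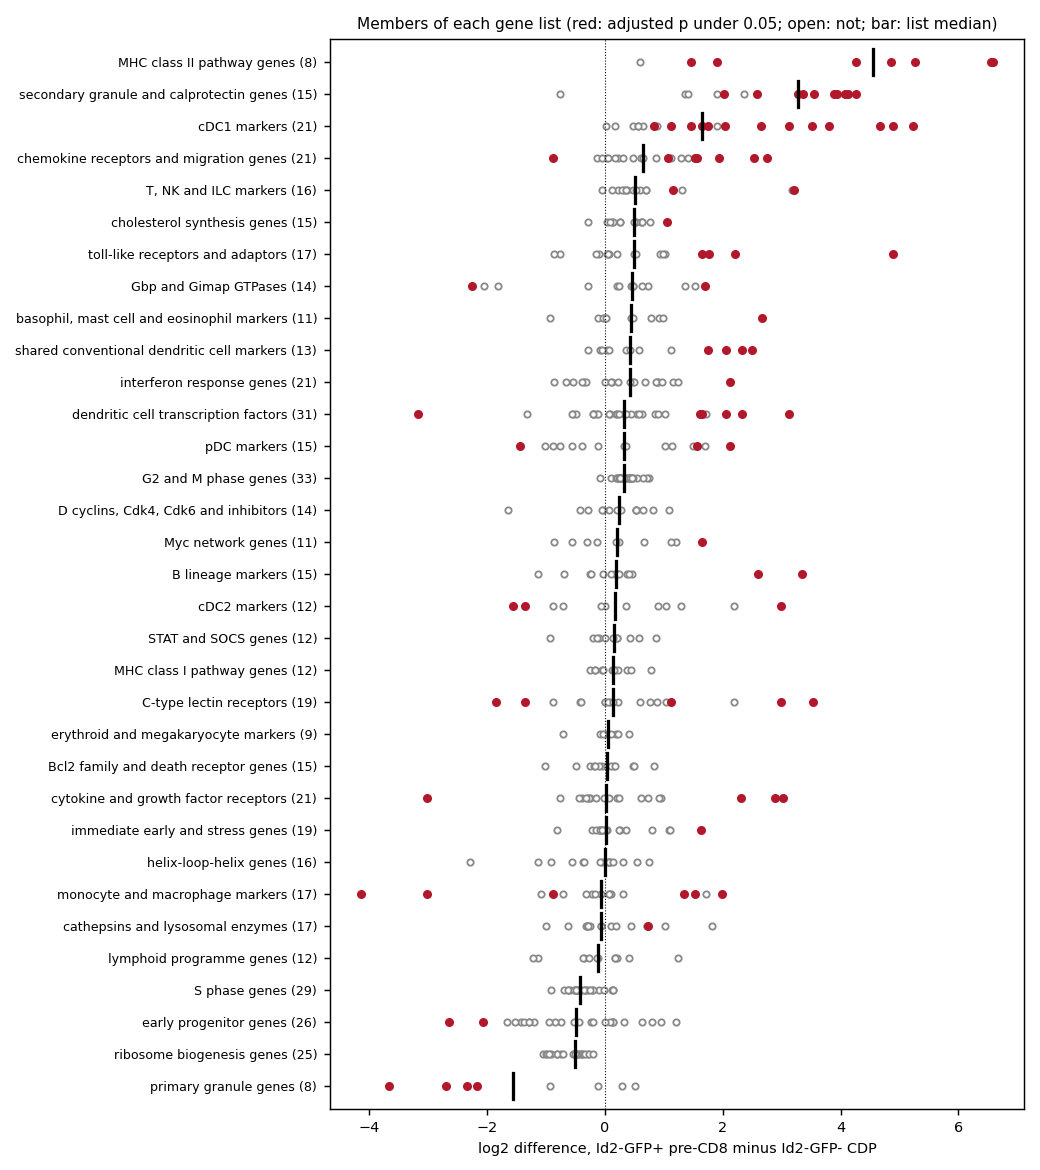
Log2 difference of Id2-GFP+ pre-CD8 minus Id2-GFP- CDP (horizontal axis) for the measured members of 33 gene lists (rows, number measured in brackets), with red points for members at an adjusted p under 0.05, open points for the rest and a bar at each list's median. MHC class II, secondary granule and cDC1 genes have the highest medians and primary granule genes the lowest.

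Id2-GFP+ CDP was then placed between the 2 populations. Among the 277 genes higher in Id2-GFP+ pre-CD8, its mean lay a median of 62.3% of the way from Id2-GFP- CDP (quartiles 48.2% and 79.2%). Both of its arrays lay strictly between the groups for 203 of the 277, and both lay above both pre-CD8 arrays for 30. Among the 80 lower genes the median was 48.2% of the way (quartiles 33.6% and 57.7%), and both arrays lay between for 64. Genes chosen for a difference between 2 groups will often have another group between them, so these positions are a description. F13a1 (26.7%), Ctsg (25.1%), Mpo (26.3%), Csf1r (23.2%) and Prtn3 (14.1%) stood nearer to Id2-GFP- CDP, and Serpinb10 (89.4%), Ifi205 (83.5%), Samd9l (81.6%) and Plbd1 (81.4%) stood nearer to Id2-GFP+ pre-CD8.

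The steps were also tested on their own, sharing arrays with the whole difference. In Id2-GFP+ CDP against Id2-GFP- CDP 119 genes rose (0.597% of 19938) and 0 fell by limma, 1098 had an unadjusted p under 0.05, and the block gave 735 and 831. Of the 277 genes higher in Id2-GFP+ pre-CD8, 83 were called in that step as well. For Id2-GFP+ pre-CD8 minus Id2-GFP+ CDP, limma called 0 genes, 643 had an unadjusted p under 0.05, and the block gave 194 rising and 220 falling. The count of 119 was 35 and 59 without Id2-GFP- CDP replicate 1 and 2 and 42 without Id2-GFP+ CDP replicate 2. A last contrast set Id2-GFP+ CDP against the midpoint of the other pair, Id2-GFP+ pre-CD8 with Id2-GFP- CDP. By limma 26 genes lay above the midpoint (0.13%) and 0 below, 427 had an unadjusted p under 0.05, and the block gave 193 and 32. Of the 26, 22 were among the 277 genes.

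For all 26 genes above the midpoint the mean of Id2-GFP+ CDP was also above the means of both other populations. 7 of the 26 were secondary granule or calprotectin genes: Camp, Cd177, Chil3, Lcn2, Ltf, S100a8 and S100a9. Ifitm6, of an interferon-induced membrane protein family, had 5.73 and 5.64 in Id2-GFP- CDP, 9.36 and 9.70 in Id2-GFP+ CDP and 7.99 and 8.34 in Id2-GFP+ pre-CD8. Lrg1, a secreted leucine-rich glycoprotein, had 5.39 and 5.61, 9.20 and 9.74 and 8.25 and 8.57 in that order. Wfdc21, a whey acidic protein domain gene, had 7.70 and 7.59, 11.33 and 11.83 and 10.62 and 10.49. In all 3 both Id2-GFP+ CDP arrays were above both pre-CD8 arrays. Tnfsf13b, the B cell survival factor BAFF, stood at 216.4% of the way, also with both Id2-GFP+ CDP arrays on top. Mcemp1, Ly6g, Slfn4 and Clec4a2 stood at 157.3%, 148.7%, 136.4% and 128.2% of the way, and Lyz2 stood at 142.3%. Adjusted midpoint p-values of the 10 genes named by the smallest p ran from 0.00751 to 0.0187 by limma. The count of 26 depended on single arrays, being 14 without Id2-GFP- CDP replicate 1, 65 and 0 without Id2-GFP+ CDP replicate 1 and 2, 17 without either Id2-GFP- pre-CD8 array, and 1 and 10 without Id2-GFP+ pre-CD8 replicate 1 and 2.

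The course over the 3 populations is given for 4 lists, those with the 3 highest medians and the lowest. For MHC class II genes the list median, relative to Id2-GFP- CDP, was 2.28 in Id2-GFP+ CDP and 4.56 in Id2-GFP+ pre-CD8. For cDC1 markers it was 0.71 and 1.66, for secondary granule genes 3.62 and 3.28, and for primary granule genes -0.08 and -1.56. Of the 15 secondary granule genes 13 were called between Id2-GFP+ CDP and Id2-GFP- CDP, against 5 of 8 class II genes and 5 of 21 cDC1 markers. The share of all genes called higher in that step was 0.597%. The courses of the lists were not tested against each other.

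**Figure D5:**
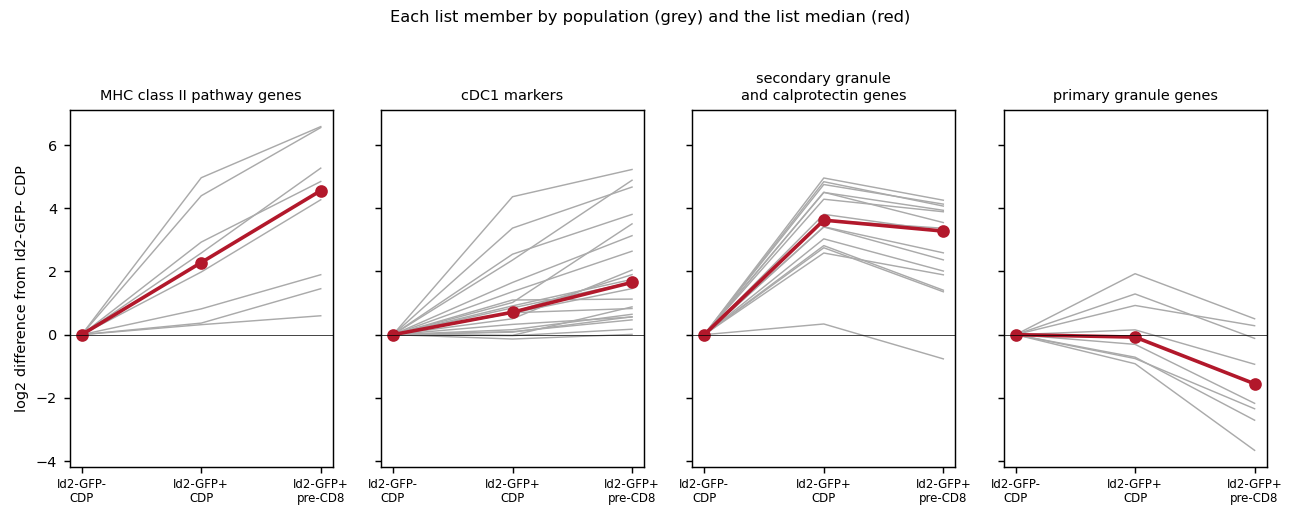
Log2 difference from the mean of Id2-GFP- CDP (vertical axis) in Id2-GFP- CDP, Id2-GFP+ CDP and Id2-GFP+ pre-CD8 (horizontal axis) for each measured member (grey) and the median (red) of 4 gene lists. The class II and cDC1 medians are highest in Id2-GFP+ pre-CD8 and the secondary granule median in Id2-GFP+ CDP. The primary granule median is near 0 in Id2-GFP+ CDP and at -1.56 in Id2-GFP+ pre-CD8.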

How the data were processed

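Sorted bone marrow cells were profiled on 8 Affymetrix arrays, 2 for each of 4 groups. The deposited table holds linear intensities, made by the authors with RMA in Affymetrix Expression Console per the submitters' processing notes, which give no versions. RMA corrects background, normalizes between arrays and summarises probes, and the interquartile range of log2 intensity still ran from 3.15 to 3.73 over the arrays. Values were taken to log2 here, since the table was deposited as linear intensity and not as log2. Of 28853 probe sets 21789 had 1 gene symbol, and the probe set with the highest mean was kept for each of 19938 genes. A further 1621 probe sets with more than 1 symbol and 5443 without any were tested apart.

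Differences were tested with limma 3.58.1 in R 4.3.3 (group means over all 8 arrays, eBayes with trend, Benjamini-Hochberg adjustment, threshold 0.05), after tests on simulated data. An exact permutation of 2 against 2 arrays cannot go below a two-sided p of 0.333. The number of arrays limits the precision. Alternatives were each array left out, the brightness set or replicate number as a block, 2 other scalings, an offset of 16 before log2, the compared arrays alone, no trend, averaged probe sets and a filter that left out the dimmest 25% of genes. Genes were named as Id2, the 15 largest differences each way, the 4 smallest p-values of each of 33 lists, a set of regulators, and the 10 smallest midpoint p-values. Other list members, and the letter patterns shown, were picked after their values were seen. The comparison, its members and its lists were chosen with earlier results of these data known. Of 607 list entries 551 were different genes and 508 of these were measured. Figures, counts and sequences were made with Python 3.11.15.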

Additional observations from a re-analysis of the deposited data

Results flagged for a closer look

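Probe sets with several gene symbols or none were outside the gene comparisons, and some of them also differed. Of 7064 such probe sets 33 passed at an adjusted p under 0.05 by limma for Id2-GFP+ pre-CD8 against Id2-GFP- CDP, 25 higher and 8 lower, or 0.467%. In the same fit 294 probe sets with 1 symbol passed, or 1.35%. They are not named here, and which transcripts they measure was not tested.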

How the results depend on the processing

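No called difference of a named gene changed sign under the alternatives run, but the balance of calls turned with the brightness set as a block, from more genes higher to more genes lower. Some list medians near 0 had opposite signs between the brighter and the dimmer arrays, such as 0.43 and -0.07 for cDC2, 0.13 and -0.10 for pDC, 0.09 and -0.09 for monocyte and macrophage markers, and 0.07 and -0.20 for cathepsins and lysosomal enzymes. The Id2 difference was 5.85 in the brighter arrays alone and 4.39 in the dimmer arrays alone, and 4.54 to 5.70 with each array left out. Leaving out each array in turn gave 75 to 276 genes higher and 2 to 94 lower for Id2-GFP+ pre-CD8 against Id2-GFP- CDP. It gave 35 to 126 in Id2-GFP+ CDP against Id2-GFP- CDP, 0 to 1 in Id2-GFP+ pre-CD8 against Id2-GFP+ CDP, and 0 to 65 off the midpoint. The brightness set as a block gave 1390 higher, 1764 lower, 1566, 414 and 225 in that order. Quantile normalization gave 563, 354, 207, 24 and 65, and 75th percentile scaling 623, 366, 231, 29 and 67. With the replicate block 185 genes were higher, 23 lower and 6 off the midpoint, and the Id2 difference stayed at 5.12 (adjusted p of 0.00524 by limma). Same-numbered arrays of the 2 groups compared deviated in opposite directions (r of -0.626 across genes), and the crossed pairing, chosen after seeing the data, gave 1390 higher and 1764 lower, as it is the brightness set. With the compared arrays alone 133 genes were lower and 17 off the midpoint. For Id2-GFP+ pre-CD8 minus Id2-GFP+ CDP, an offset of 16 before log2 gave 10 genes and leaving out the dimmest 25% of genes gave 8. The cause of these shifts was not tested. Of the values of named genes with 1 array left out, 1064 kept their side of the threshold, 150 lost their call and 18 gained one. Under the other alternatives 1197 kept it, 34 lost a call and 151 gained one. With 2 arrays a group, differences of small size can be missed.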
